A study of Mus musculus with 18 samples.

Results

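The 40 genes described here are cell cycle genes, 16 of DNA replication and 24 of mitosis, chosen by symbol from the 50600 gene IDs of an RNA-seq count table of mouse macrophages. All 40 matched 1 ID each. The cells were bone marrow-derived macrophages (BMDMs) of WT and IRF5 KO mice, grown for 8 days with the growth factor GM-CSF. In each genotype there were 3 groups of 3 biological replicates, 18 libraries in all. Unstimulated BMDMs, labelled with the vehicle DMSO, received no LPS. LPS DMSO BMDMs had DMSO for 1 h and then 100 ng/ml LPS, the bacterial endotoxin sensed by Toll-like receptor 4, for 2 h. LPS defactinib BMDMs had 3.5 μM defactinib, an inhibitor of the kinases FAK and PYK2, in place of DMSO, at the same times. Defactinib was not given without LPS, so its effect is read in LPS-stimulated cells only. The unstimulated columns carry an untreated mark in the table where the labels say DMSO, so whether vehicle was added to them cannot be told. The labels give no strain, age or sex, and the study's methods describe purchased C57BL/6 J males without naming the animals of each library.

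A cell that divides copies its DNA in S phase and separates the copies in mitosis. Replication starts where CDC6 and CDT1 load the MCM2-7 helicase onto origins, which CDC45 and the GINS complex then activate, while the PCNA clamp holds the polymerases and ribonucleotide reductase and thymidylate synthase supply nucleotides. The E2F factors drive many of these genes at the end of G1. Genes of mitosis, among them the B-type cyclins, the Polo and Aurora kinases, the spindle checkpoint and the kinesins, reach their highest level later, in G2 and M, under B-MYB and FOXM1. Macrophages differentiated from bone marrow with a growth factor still hold dividing cells, and LPS is known to slow the cycle of such cultures.

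The gene counts of a library summed to 39282181 in the shallowest and 61949143 in the deepest, around a median of 45317217, and the 40 genes had between 45 and 18268 counts in a library. Levels are CPM, a gene's counts relative to all counts of its library, after TMM scaling, and tests are those of edgeR with Benjamini-Hochberg adjusted p (FDR) over 15663 genes, all 40 included. A gene was called at FDR below 0.05 with a change over 2-fold. Macrophage markers summed to between 10100 and 19500 CPM in every library, and markers of T, B and NK cells to at most 1.28 CPM. Irf5 had 587 to 650 CPM in unstimulated WT and 335 to 397 CPM in unstimulated IRF5 KO libraries (log2 fold change -0.75, FDR = 0.00492). After LPS it had 434 to 475 CPM in WT and 345 to 435 CPM in IRF5 KO (-0.16, FDR = 0.428), and with defactinib 213 to 379 and 353 to 392 CPM (0.42, FDR = 0.0545). These counts run over the whole gene, and the deleted part is not given in the sources used here, so they do not check the genotype labels. Ptk2b, the gene of PYK2, was at 101 to 186 CPM and Ptk2, the gene of FAK, at 15.3 to 43.5 CPM over the 18 libraries.

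A few libraries stood apart in these genes. Replicate 3 of IRF5 KO LPS DMSO lay nearer to the unstimulated IRF5 KO mean than to the IRF5 KO LPS defactinib mean in 35 of the 40 genes, against 12 and 13 for replicates 1 and 2. Over all genes its counts differed from those of replicates 1 and 2 by a chi-square of 441 and 425 per gene. The other replicate pairs of the 6 groups lay between 2.33 and 183, with WT LPS defactinib at 84.1, 140 and 183. Whether the label and the treatment of replicate 3 are as given cannot be told from these files, and the values of its group depend on it. Counts of calls that rest on this group, and the genes named in them, are given with and without that library. Replicate 2 of IRF5 KO unstimulated was the highest of its group in 15 of 16 replication and 24 of 24 mitosis genes. Replicate 3 of WT LPS defactinib was the lowest of its group in 13 and 21 of them, and replicate 3 of WT unstimulated in 13 and 23. The heat map of all 40 genes shows these columns.

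**Figure D1:**
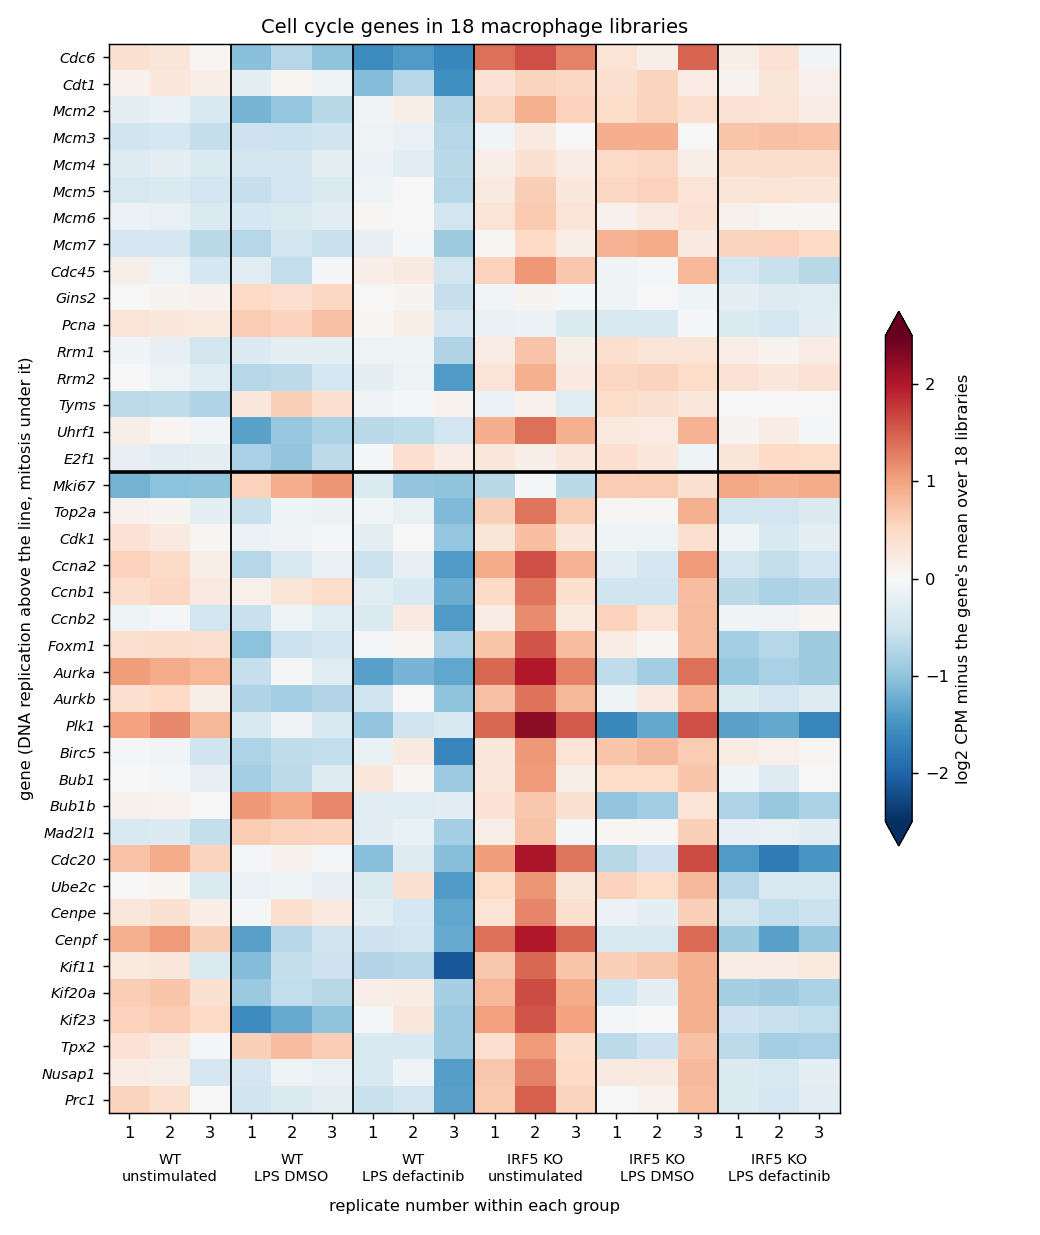
Each row is a gene and each column a library. Colour gives log2 CPM minus the mean of that gene over the 18 libraries, with replication genes above the thick line and mitosis genes under it. Replicate 3 of IRF5 KO LPS DMSO is redder than replicates 1 and 2 in most mitosis rows, and Mki67 runs against the rows around it.

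Per kb of exon, unstimulated WT BMDMs held Pcna, the sliding clamp of the replication fork, at 86.6 ± 2.53 CPM per kb (SD, n = 3), above every other gene of the 40. The next were Mcm3 at 14.2 ± 0.825 and Rrm2, the small subunit of ribonucleotide reductase, at 13.6 ± 1.38 CPM per kb, which did not differ beyond their SDs. The highest mitosis gene was Bub1b, which encodes the spindle checkpoint kinase BUBR1, at 9.63 ± 0.327 CPM per kb, followed by Mki67, the Ki-67 protein of the chromosome surface, at 7.66 ± 0.458 and Top2a, topoisomerase II alpha, at 7.49 ± 0.907. The lowest were Cenpf, a kinetochore protein, at 0.665 ± 0.107 and Cdc6 at 0.821 ± 0.0987 CPM per kb. The length takes in all annotated exons of a gene, 15433 bases for Cenpf and 5229 for Cdc6, so the order depends on the annotation. Only uniquely mapped pairs were counted, and Pcna, Ccnb1, Ccnb2 and Tyms have pseudogenes listed in the table, so some of their reads could have been left out. Exons shared with another gene on the same strand made up 3.89% of Mcm7, 2.5% of Foxm1 and 1.35% of Top2a.

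The promoters of both classes were read for motifs of cell cycle control. RefSeq windows of GRCm38.p6, from 250 bases before to 50 after the start, were matched for 33 of the 40 genes, 14 of replication and 19 of mitosis. The 3 motifs searched were read on both strands. They were the cell cycle homology region CHR (TTTGAA or TTCGAA), which the DREAM complex and B-MYB bind, the CCAAT box (CCAAT) bound by NF-Y, and E2F sites (TTCCCGC, and also TTGGCGC, or TTCGCGC). A CHR was found in 14 of 19 mitosis genes (73.7%), in 3 of 14 replication genes (21.4%) and in 19.2% of the 32851 promoter windows of the table. An E2F site was found in 3 of 19 mitosis genes (15.8%), in 8 of 14 replication genes (57.1%) and in 8.07% of all windows. A CCAAT box was found in 84.2% of the mitosis and 71.4% of the replication genes, against 37.4% of all windows. A match is a description of the letters and not a bound site. The 120 bases before the start are printed for 8 genes: Mki67 and Bub1b, which LPS raised in WT cells, Kif23, which it lowered most, Plk1 and Cdc20, with the largest falls in IRF5 KO cells, Kif11, with a CHR beside a CCAAT box, and Mcm6 and Rrm1, with E2F sites. Each reads 5′ to 3′ along the gene's strand, and capitals mark any of the 3 motifs, with overlapping matches run together.
Mki67, chr7:135716380-135716499, minus strand: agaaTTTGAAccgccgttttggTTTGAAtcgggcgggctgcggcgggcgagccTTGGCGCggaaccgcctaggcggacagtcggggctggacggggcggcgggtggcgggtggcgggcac
Bub1b, chr2:118598091-118598210, plus strand: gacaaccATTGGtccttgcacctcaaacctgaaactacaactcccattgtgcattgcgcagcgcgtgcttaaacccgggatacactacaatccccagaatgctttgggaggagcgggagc
Kif23, chr9:61946800-61946919, minus strand: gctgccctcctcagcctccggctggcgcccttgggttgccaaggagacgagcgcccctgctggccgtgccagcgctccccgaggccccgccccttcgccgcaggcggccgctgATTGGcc
Plk1, chr7:122159315-122159434, plus strand: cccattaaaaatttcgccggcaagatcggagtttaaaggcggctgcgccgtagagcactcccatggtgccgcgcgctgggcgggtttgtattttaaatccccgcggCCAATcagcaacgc
Cdc20, chr4:118437344-118437463, minus strand: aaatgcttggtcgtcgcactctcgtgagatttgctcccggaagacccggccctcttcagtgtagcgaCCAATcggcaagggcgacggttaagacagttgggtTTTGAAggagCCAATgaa
Kif11, chr19:37376262-37376381, plus strand: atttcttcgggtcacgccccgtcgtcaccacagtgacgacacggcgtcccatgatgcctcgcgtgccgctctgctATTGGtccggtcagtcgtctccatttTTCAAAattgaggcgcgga
Mcm6, chr1:128359706-128359825, minus strand: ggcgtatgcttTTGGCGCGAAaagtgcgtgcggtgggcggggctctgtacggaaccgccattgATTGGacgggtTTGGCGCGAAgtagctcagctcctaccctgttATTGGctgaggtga
Rrm1, chr7:102441575-102441694, plus strand: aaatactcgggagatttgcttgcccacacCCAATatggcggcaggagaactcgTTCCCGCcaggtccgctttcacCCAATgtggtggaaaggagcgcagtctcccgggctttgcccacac
In Mki67 the E2F site stands between the CHRs and the start, and in Cdc20 and Kif11 a CHR and a CCAAT box lie in the stretch shown. In Mcm6 each E2F run is a pair of overlapping matches on opposite strands.

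The first question was what 2 h of LPS did to these genes in WT BMDMs. Mki67 (ENSMUSG00000031004, mm10 chr7:135689784-135716361) was measured at 71.8, 79.3 and 80.2 CPM in the unstimulated and at 240, 305 and 349 CPM in the LPS DMSO libraries. All LPS libraries lay above all unstimulated ones, with a log2 fold change of 1.95 (SE 0.20, FDR = 1.5e-06). Kif23 (ENSMUSG00000032254, mm10 chr9:61915905-61946774), the kinesin of the central spindle in cytokinesis, went the other way, from 16.1, 16.8 and 15.3 CPM to 3.62, 4.48 and 5.41 CPM. It fell by 1.83 on the log2 scale (SE 0.29, FDR = 0.0001), again with no overlap of the groups. In these bulk libraries fewer cells in a phase and less RNA per cell cannot be told apart.

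Of the 24 mitosis genes, 3 rose and 6 fell in WT, where 11.6% of all tested genes were called higher and 9.71% lower. The split was 1 higher and 10 lower with library size alone, where 8.27% of all genes were called higher and 18.1% lower. It was 1 higher and 5 lower with no filter on low counts, where 6.82% and 5.74% of a larger set of genes were. Besides Mki67, the risers were 2 members of the spindle checkpoint, which holds anaphase until all chromosomes are attached. Mad2l1, the MAD2 protein, was at 20, 20.7 and 17.2 CPM unstimulated and 40.4, 38.8 and 38.1 CPM after LPS (log2 fold change 1.02, FDR = 0.000713). Bub1b went from 42.2, 41.7 and 39.6 CPM to 82.7, 75.1 and 89.9 CPM (1.00, FDR = 0.00321). Both stood at the 2-fold line. Of 18 fits that left out 1 library, the call was kept in 16 for Mad2l1 and in only 8 for Bub1b. In the other fits the calls were lost on fold size, at 0.94 or higher in each.

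The mitosis genes called lower in WT, besides Kif23, were Cenpf, Kif20a, Aurka, Aurkb and Foxm1. Cenpf dropped from 10.4, 11.8 and 8.54 CPM to 2.2, 3.43 and 3.97 CPM (log2 fold change -1.68, FDR = 0.0041). Kif20a, a kinesin of cytokinesis, changed by -1.31 (FDR = 0.00432), and Aurka and Aurkb, the Aurora kinases of the centrosome and of the chromosomal passenger complex, by -1.22 (FDR = 0.0283) and -1.15 (FDR = 0.00175). Foxm1, the transcription factor of G2 genes, changed by -1.08 (FDR = 0.00391). Plk1, the Polo kinase, had 10.3, 11.8 and 9.07 CPM unstimulated and 3.9, 4.78 and 3.91 CPM after LPS, and missed the test at -1.31 with an SE of 0.58 and an FDR of 0.0868. Its SE comes from 1 fit over all groups, in which the IRF5 KO LPS DMSO libraries lie far apart for this gene. Leaving out replicate 3 of that group, Plk1 was at -1.31 in WT with an FDR of 3.67e-05. The call of Aurka was lost in 4 of 18 fits that left out 1 library, at log2 fold changes of -1.23 to -1.10 in those fits.

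Among the replication genes, Tyms, thymidylate synthase, rose from 11.6, 11.7 and 10.8 CPM to 22, 27.4 and 24 CPM (log2 fold change 1.11, FDR = 1.85e-06). Cdc6 (ENSMUSG00000017499, mm10 chr11:98907801-98923940) fell from 4.7, 4.46 and 3.71 CPM to 1.74, 2.2 and 1.8 CPM (-1.16, FDR = 0.00276), and Uhrf1, which carries DNA methylation over to the new strand, by 1.05 (FDR = 0.000268). These were the 3 calls among 16. At FDR below 0.05 without the fold limit, 7 of 16 replication and 10 of 24 mitosis genes passed, beside 41.8% of all genes, and the classes were not tested against each other. The 5 MCM subunits other than Mcm2 were between -0.13 and -0.01, and Mcm2 was at -0.68 (FDR = 0.00646). Pcna and Gins2 were higher by less than 2-fold, at 0.36 (FDR = 0.0358) and 0.42 (FDR = 0.0145). Pcna turned to -0.02 when library size alone set the scale, a scaling that moved the median of all genes by -0.38. The median log2 fold change was -0.11 over the replication and -0.49 over the mitosis genes, beside 0 over all genes. Markers of other cells differed between the same libraries. Of 9 neutrophil markers 6 were called higher after LPS and Cxcr2 lower (-3.40, FDR = 0.0043), with a median of 1.22 and sums of 255 to 270 CPM before and 325 to 419 CPM after it. Mast cell and basophil markers summed to 4.35 to 4.52 CPM before and 36.2 to 47.8 CPM after LPS, nearly all of it Hdc at 31.9, 42.5 and 31.9 CPM, while Fcer1a, Tpsb2 and Cma1 were at 0 in the 3 LPS libraries. Their part in the results was not tested.

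**Figure D2:**
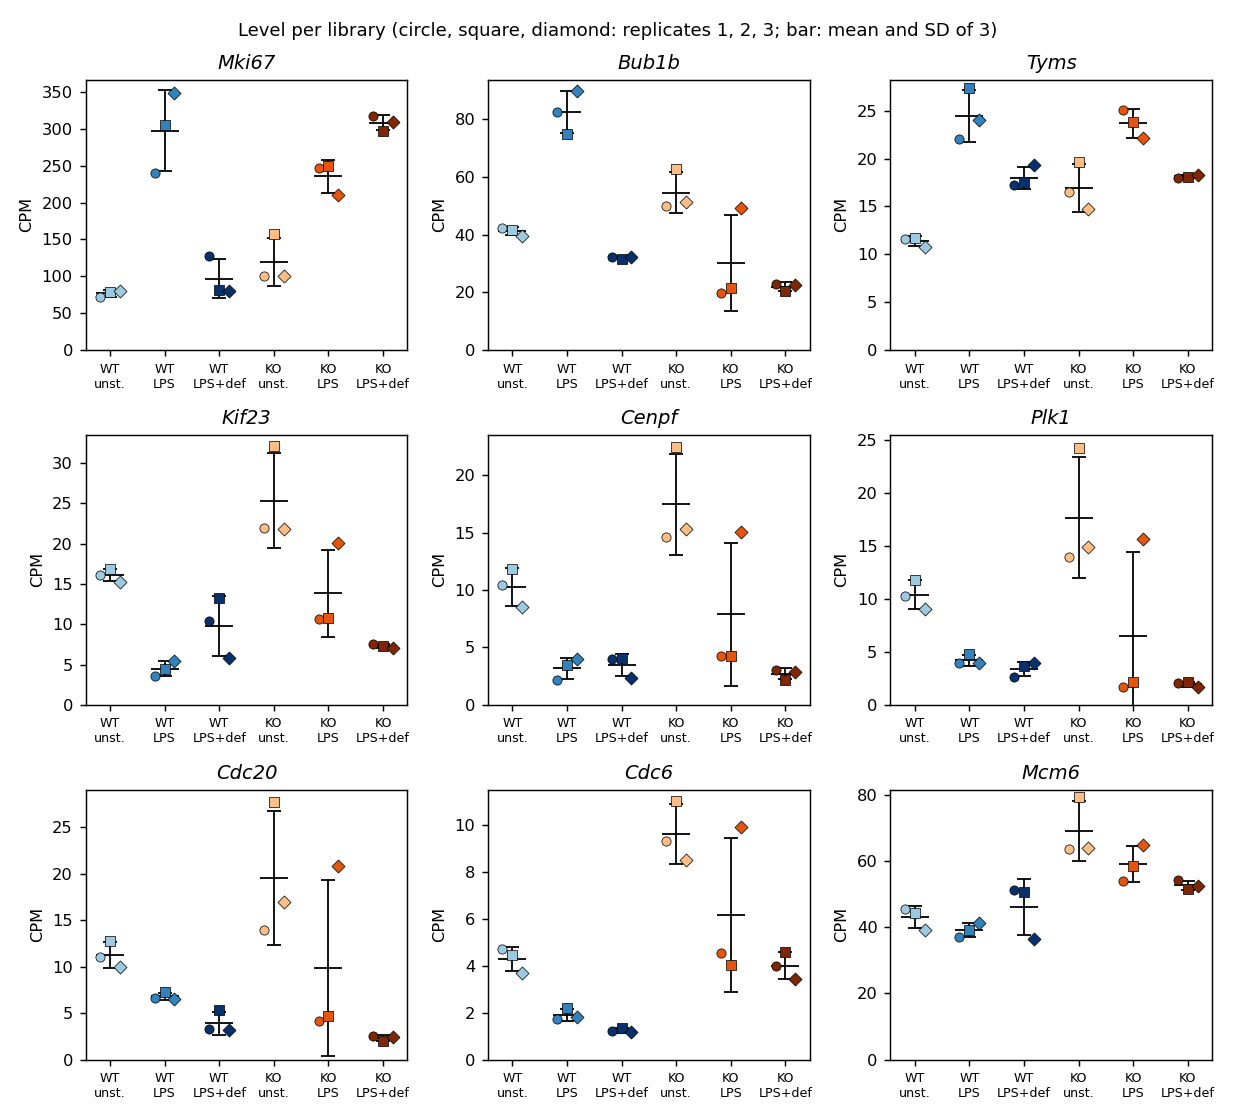
Points are TMM-scaled CPM in each library for 9 genes, with circles, squares and diamonds for replicates 1, 2 and 3 and a bar for the mean and SD of 3; axes start at 0. Mki67, Bub1b and Tyms were higher after LPS in WT and Kif23, Cenpf and Cdc6 lower, and the diamond of KO LPS stands above its group in Plk1, Cdc20, Cenpf and Kif23.

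Defactinib was compared with DMSO in LPS-stimulated WT BMDMs next, against a background of 10.4% of genes called higher and 18.6% lower. Mki67 was at 127, 81.7 and 80.5 CPM with defactinib, below all LPS DMSO libraries, with replicate 1 above and replicates 2 and 3 near the highest unstimulated library at 80.2 CPM. It fell by 1.63 (SE 0.20, FDR = 6.95e-06). Bub1b had 32.3, 31.7 and 32.3 CPM with defactinib, below its unstimulated libraries as well, and fell by 1.36 (FDR = 0.000247). Tpx2, which brings Aurora A to the spindle, had 17.3, 17.1 and 12 CPM against 33.8, 38.2 and 34.3 CPM with DMSO and fell by 1.19 (FDR = 0.00284). Kif23 rose to 10.4, 13.2 and 5.78 CPM (log2 fold change 1.12, FDR = 0.0036), still below its unstimulated libraries. Its groups did not overlap, with 5.41 CPM the highest DMSO value, and without replicate 2 of WT LPS defactinib the change was 0.85. E2f1, the activator of S phase genes, was the only replication gene called, with 19.4, 26.9 and 22.9 CPM against 11.5, 10.1 and 12.7 CPM (1.01, FDR = 3.5e-05). Its call rested on the 2-fold line, and ended with DESeq2 or its size factors, with no filter (0.99), and without replicate 2 of WT LPS DMSO (0.96) or of WT LPS defactinib (0.89).

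In all, 1 mitosis gene rose and 3 fell with defactinib, and 1 of 16 replication genes rose. A further 4 replication genes were lower at FDR below 0.05 by less than 2-fold, where 28.6% of all genes were lower at that FDR: Cdt1 by 0.96 (FDR = 0.000173), Pcna by 0.70 (FDR = 0.000362), Gins2 by 0.61 (FDR = 0.000927) and Tyms by 0.44 (FDR = 0.00395). Mcm2 was higher by 0.75 (FDR = 0.00263). Mad2l1 was lower by 0.98 (FDR = 0.000748), at 21.7, 23.3 and 14.5 CPM, which spans its unstimulated range. The LPS and the defactinib comparison share the WT LPS DMSO libraries, so opposite signs of a gene in both are not independent. Set side by side, the log2 fold changes for LPS and then for defactinib were 1.95 and -1.63 in Mki67, 1.00 and -1.36 in Bub1b, 1.11 and -0.44 in Tyms, -1.83 and 1.12 in Kif23, -0.58 and 1.01 in E2f1, -1.22 and -0.99 in Aurka, and -1.16 and -0.63 in Cdc6. Markers of cell types differed between these libraries too. Macrophage markers summed to 10100 to 10600 CPM with DMSO and 11400 to 15800 CPM with defactinib, with 2 of 12 called higher and 2 lower, and 2 of 9 myeloid progenitor markers were called lower. Of 9 dendritic cell markers 2 were higher and 3 lower, among them Ccr7, from 298, 368 and 266 to 13.3, 8.78 and 47.6 CPM, and of 5 mast cell and basophil markers 2 were lower. Hdc, which missed the test, was at 2.07, 1.95 and 25.5 CPM with defactinib. Their part in the results was not tested.

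**Figure D3:**
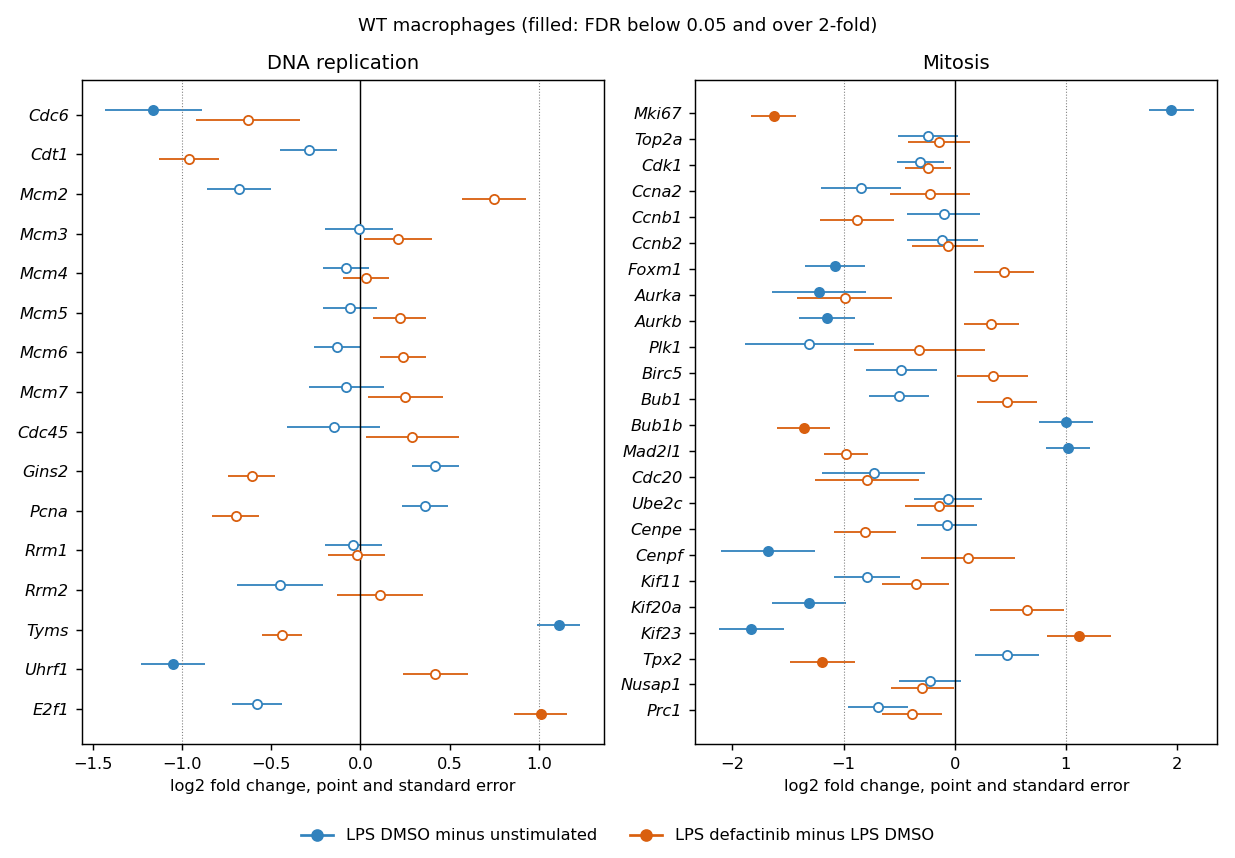
Log2 fold changes with standard errors in WT BMDMs for the 16 replication (left) and 24 mitosis genes (right), for LPS against unstimulated (blue) and defactinib against DMSO after LPS (orange); dotted lines mark 2-fold. Mki67 lies at 1.95 and -1.63 and Kif23 at -1.83 and 1.12, and the MCM genes other than Mcm2 lie near 0.

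The WT LPS defactinib libraries were also set against unstimulated WT, a comparison chosen after the data were seen that does not use the LPS DMSO libraries. No gene of the 40 rose, 7 mitosis and 2 replication genes fell, and 9.10% of all genes were called higher and 15.8% lower. Aurka changed most, from 11, 10.1 and 9.38 CPM to 2.07, 2.36 and 2.16 CPM (log2 fold change -2.21, SE 0.44, FDR = 0.000822). Cdc6 was at 1.21, 1.35 and 1.16 CPM (-1.79, FDR = 0.000138) and Cdt1, its partner in origin licensing, at 5.56, 7.15 and 4.08 CPM against 12.6, 14.2 and 13.2 CPM (-1.25, FDR = 3.05e-05). The other mitosis genes called were Plk1 (-1.62, FDR = 0.031), Cenpf (-1.56, FDR = 0.00576), Cdc20 (-1.52, FDR = 0.0147), Kif11 (-1.14, FDR = 0.00574), Prc1 (-1.08, FDR = 0.00452) and Ccna2 (-1.06, FDR = 0.022). Without replicate 3 of WT LPS defactinib the mitosis calls went from 7 to 2, Aurka at -2.18 and Cenpf at -1.33, while Cdc6 and Cdt1 were called at -1.73 and -1.05. That fit called 8.36% of all genes higher and 15.8% lower. Mki67 was not called in this comparison, and Tyms was higher by 0.67 (FDR = 0.000276), under 2-fold.

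IRF5 KO was then compared with WT in unstimulated BMDMs. Cdc6 was at 9.32, 11 and 8.5 CPM in IRF5 KO against 4.7, 4.46 and 3.71 CPM in WT (log2 fold change 1.16, SE 0.26, FDR = 0.00667), and Uhrf1 at 45.4, 63.3 and 45.1 against 26.8, 25 and 23 CPM (1.04, SE 0.18, FDR = 0.000939). These 2 replication genes and no mitosis gene were called by edgeR, against 3.51% of all genes called higher and 3.80% lower. At an unadjusted p below 0.05, 14 mitosis genes were higher, as were 13.2% of all genes. DESeq2 and limma-voom called no mitosis gene, where they called 3.68% and 3.57% of all genes higher. At FDR below 0.05 without a fold limit, 11 replication and 3 mitosis genes were higher, where 7.37% of all genes were. They included Mcm2 (0.92, FDR = 0.00228), Mcm5 (0.78, FDR = 0.00209), Mcm6 (0.68, FDR = 0.00155), Mcm4 (0.55, FDR = 0.00737), Cdc45 (0.92, FDR = 0.0231), Rrm1 (0.62, FDR = 0.0166), Top2a (0.90, FDR = 0.0365), Mad2l1 (0.75, FDR = 0.0173) and Mki67 (0.64, FDR = 0.0347). Some of these did not pass in every fit with 1 library left out. In at least 1 of the 18 fits without a library, Mcm7, Cdc45, Rrm1, E2f1, Top2a, Mad2l1 and Mki67 went over an FDR of 0.05, up to 0.228 for Mki67 and 0.211 for Top2a without replicate 2 of IRF5 KO unstimulated, while Mcm2, Mcm4, Mcm5, Mcm6, Tyms, Cdc6 and Uhrf1 did not. Pcna went the other way, at 152, 154 and 134 CPM in IRF5 KO against 215, 205 and 203 CPM in WT (-0.51, FDR = 0.0142, and up to 0.0721 with 1 library left out).

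The mitosis genes each had a positive log2 fold change at rest, 24 of 24, from 0.25 to 0.90 with a median of 0.66, beside 0.01 over all genes. In 21 of them the 3 IRF5 KO libraries lay above the 3 WT libraries, which held for 26.5% of all tested genes. As the genes of a class move together within a library, these are not 24 separate observations. Replicate 2, the highest IRF5 KO library, had a median of 5.1 log2 CPM over the mitosis genes where replicates 1 and 3 had 4.4 and 4.42, and the WT libraries 4.14, 4.17 and 3.73. Without it Cdc6 was at 1.05 (FDR = 0.0341) and Uhrf1 lost its call at 0.86 (FDR = 0.00724). The Uhrf1 call was also lost without replicate 3 of WT unstimulated. Markers of other cells moved with the genotype. Myeloid progenitor markers summed to 42.9 to 58.9 CPM in unstimulated IRF5 KO and 11.5 to 13.6 CPM in WT, with Cd34, Kit and Cebpe called higher, 3 of 9 tested, while Mpo and Ctsg, of early granulocytes, were at or under 0.165 CPM in every unstimulated library. Neutrophil markers summed to 1090 to 1710 CPM against 255 to 270 CPM, and most of that sum was 1 gene, Mmp8, at 1620, 1000 and 1560 against 205, 198 and 169 CPM. Ly6g and Retnlg, called too, were at most at 0.577 CPM in the unstimulated libraries, while S100a8 (0.04, FDR = 0.943) and S100a9 (0.31, FDR = 0.323) were not called, and the median of the 9 markers was 0.35. Mast cell and basophil markers summed to 33.9 to 36.7 CPM against 4.35 to 4.52 CPM, most of it Gata2 at 30.8, 34.1 and 31.9 against 3.16, 3.35 and 3.3 CPM, the 1 called of 5 tested. Of 12 macrophage markers Adgre1 was higher (2.04, FDR = 0.000165), at 294, 320 and 291 against 75.2, 74.3 and 70.3 CPM, and Pparg (-1.40, FDR = 2.64e-05) and Chil3 (-1.30, FDR = 0.000118) were lower. Their part in the differences between genotypes was not tested.

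The same comparison after LPS with DMSO gave more calls, and the tests of whether the genotypes differed in their response follow further on. Here 7 replication genes and 7 mitosis genes were higher in IRF5 KO and 1 mitosis gene was lower, where 11.8% of all genes were called higher and 25.8% in either direction. Mcm2 was at 35.7, 38.5 and 35 CPM in IRF5 KO and 11.6, 13.3 and 16.2 CPM in WT (log2 fold change 1.41, SE 0.18, FDR = 1.93e-05). Mcm3 was at 142, 142 and 76.1 CPM against 52.8, 52.5 and 53.4 CPM (1.18, FDR = 0.000142) and Mcm7 at 75.8, 79.5 and 48.6 CPM against 25.3, 30.3 and 28.3 CPM (1.28, FDR = 0.000141). The other replication genes called were Cdc6 (1.69, FDR = 0.000148), Uhrf1 (1.49, FDR = 1.38e-05), Rrm2 (1.11, FDR = 0.00152) and E2f1 (1.02, FDR = 4.46e-05). Pcna was lower by 0.91 (FDR = 4.86e-05), with 130, 131 and 165 CPM against 264, 254 and 282 CPM. Cell type markers differed here too. Progenitor markers summed to 55.6 to 60.6 CPM in IRF5 KO and 17.2 to 19.9 CPM in WT, with 3 of 9 called higher. Neutrophil markers summed to 1180 to 1720 against 325 to 419 CPM, with 4 of 9 called higher and a median of 0.03. Of 12 macrophage markers 2 were higher and 3 lower. Their part in these differences was not tested.

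Among the mitosis genes the largest difference was in Kif23, with 10.6, 10.8 and 20.1 CPM in IRF5 KO LPS DMSO and at most 5.41 CPM in WT (1.62, FDR = 0.000294). Kif11, the kinesin that pushes the spindle poles apart, was at 26.2, 27.9 and 32.4 CPM against 8.26, 11.6 and 12.2 CPM (1.43, FDR = 0.00121), and Birc5, survivin, at 19.2, 21 and 18.5 CPM against 6.96, 7.73 and 7.78 CPM (1.38, FDR = 0.00247). Cenpf, Aurkb, Bub1 and Foxm1 were called at 1.04 to 1.31. Bub1b alone was lower, with 19.8, 21.5 and 49.3 CPM against 75.1 to 89.9 CPM (-1.45, FDR = 0.000192). Replicate 3 decided several of these calls. Without it 8 replication genes were higher, with Mcm7 at 1.48, Mcm2 at 1.44, Mcm3 at 1.42, Uhrf1 at 1.24, E2f1 at 1.17, Cdc6 at 1.16, Rrm2 at 1.13 and Mcm5 at 1.01, and Pcna was lower at -1.03 (FDR = 2.06e-06). The mitosis genes then split into 4 higher (Birc5 at 1.43, Kif11 at 1.34, Kif23 at 1.25 and Bub1 at 1.04) and 3 lower (Bub1b with an FDR of 1.41e-10, Tpx2 at -1.25 and Plk1 at -1.15). Aurkb at 0.84, Foxm1 at 0.78 and Cenpf at 0.42 were not called, and of all genes 13.8% were called higher and 20.7% lower. With replicate 3 as the only IRF5 KO LPS DMSO library, 15 mitosis genes were higher and none lower, Plk1 among them at 1.91, and 5 replication genes were higher, where 8.36% of all genes were. The direction of Plk1 therefore depended on which libraries stood for the group, and the higher calls of Mcm2, Uhrf1, Cdc6, Rrm2, Kif23, Kif11, Birc5 and Bub1 did not.

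With defactinib present, 3 replication and 2 mitosis genes were higher in IRF5 KO than in WT and none was lower, against 8.87% and 8.45% of all genes. Mki67 was at 318, 298 and 310 CPM in IRF5 KO and 127, 81.7 and 80.5 CPM in WT (log2 fold change 1.68, SE 0.20, FDR = 8.01e-06). Cdc6 was at 3.97, 4.59 and 3.45 CPM against 1.21, 1.35 and 1.16 CPM (1.69, FDR = 0.00023), Cdt1 at 12.5, 14.5 and 12.9 CPM against 5.56, 7.15 and 4.08 CPM (1.25, FDR = 2.69e-05) and Mcm3 at 122, 126 and 124 CPM against 69.6, 67.5 and 46.2 CPM (1.02, FDR = 0.000643). The Mcm3 call was lost in 8 of 18 fits that left out 1 library, at 0.83 in the lowest. Kif11 was called at 1.26 (FDR = 0.00423), and at 0.91, not called, without replicate 3 of WT LPS defactinib. The median over the mitosis genes was 0.02, with 12 of 24 on each side of 0, and over the replication genes 0.52. Progenitor markers summed to 38 to 39 CPM in IRF5 KO and 12.3 to 18.2 CPM in WT, with 2 of 9 called higher. Neutrophil markers summed to 2540 to 2720 against 342 to 470 CPM, with 1 of 9 called higher. Their part in these differences was not tested.

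**Figure D4:**
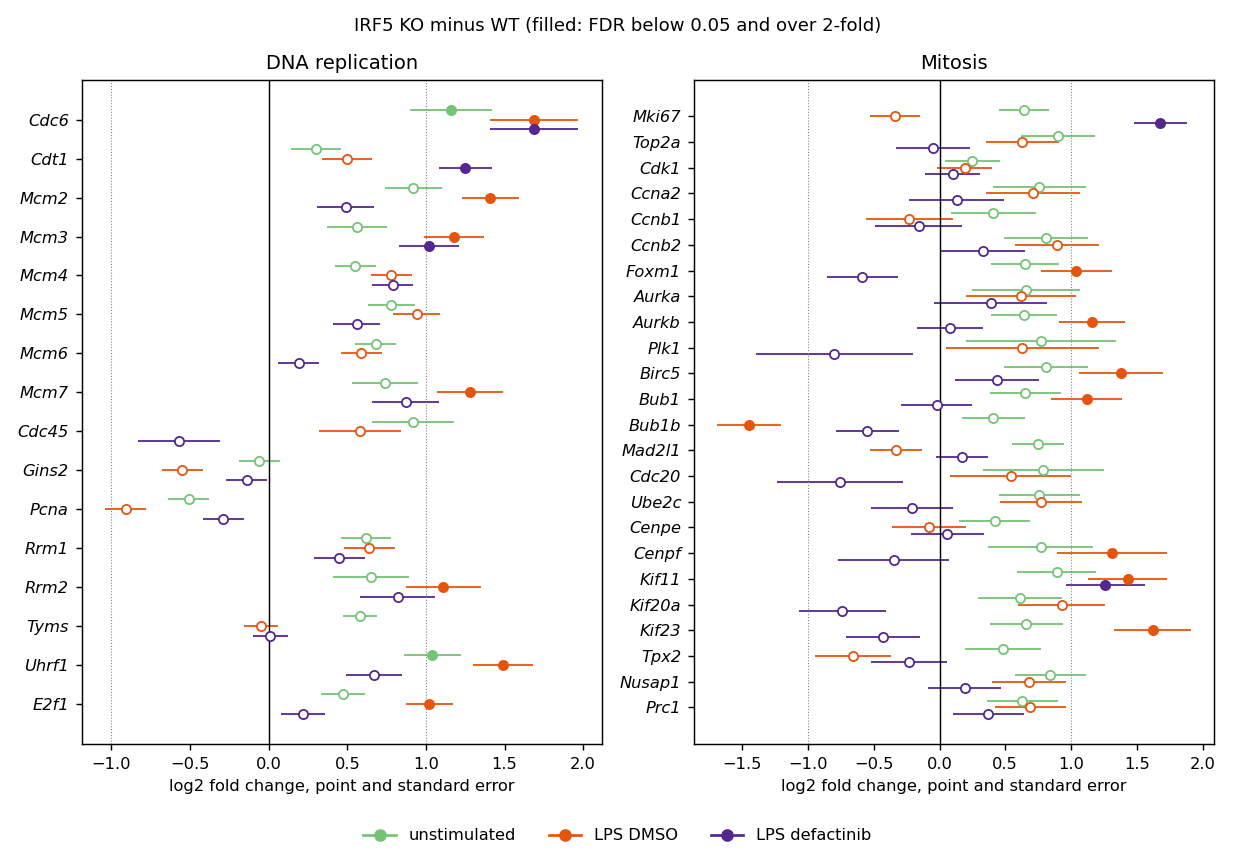
Log2 fold changes of IRF5 KO against WT with standard errors, unstimulated (green), LPS DMSO (orange) and LPS defactinib (purple), with filled points for genes called. At rest all 24 mitosis genes lie right of 0, and with defactinib they lie on both sides with Mki67 at 1.68.

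The last question was the response within IRF5 KO BMDMs. LPS with DMSO called 2 mitosis genes lower, Aurka at -1.26 (FDR = 0.0279) and Cenpf at -1.14 (FDR = 0.0373), and no replication gene, where 7.07% of all genes were called higher and 6.28% lower. DESeq2 called 4 and limma-voom 6 mitosis genes, and neither a replication gene. Of all genes DESeq2 called 7.73% higher and 6.30% lower, and limma-voom 4.35% and 9.58%. At an unadjusted p below 0.05 there were 5 of 16 replication and 13 of 24 mitosis genes, beside 48.8% of all genes. The libraries of Plk1 were far apart. It had 13.9, 24.2 and 14.9 CPM in the unstimulated, 1.67, 2.12 and 15.6 CPM in the LPS DMSO and 2.02, 2.11 and 1.65 CPM in the LPS defactinib libraries. Without replicate 3 of LPS DMSO, 10 mitosis genes fell and 1 rose, with Plk1 at -3.22 (FDR = 1.91e-08), Aurka at -2.35 (FDR = 5.68e-08), Cdc20, the activator of the anaphase promoting complex, at -2.14 (FDR = 3.66e-06) and Cenpf at -2.04 (FDR = 7.03e-06) lower, and Mki67 higher at 1.05 (FDR = 0.000417). That fit called 9.64% of all genes higher and 16.6% lower. With replicate 3 as the only LPS DMSO library none of the 40 was called, where that fit called 2.66% of all genes higher and 0.0419% lower.

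Defactinib against DMSO in LPS-stimulated IRF5 KO BMDMs called Cdc20 (-2.09, FDR = 0.0357) and Foxm1 (-1.19, FDR = 0.0329) lower and none of the 40 higher, where 0.160% of all genes were called higher and 0.760% lower. DESeq2 called 7 mitosis genes, all lower, with 3.27% of all genes lower, and limma-voom 1, with 0.351% of all genes lower. At an unadjusted p below 0.05, 18 of 24 mitosis genes were lower, as were 14.1% of all genes. The median was -0.77 over the mitosis genes, with 23 of 24 below 0, and -0.04 over all genes. That median uses all 3 DMSO libraries, of which replicate 3 was the highest in 22 of 24 mitosis genes. By library, the median log2 CPM over the mitosis genes was 4.02, 3.94 and 4.63 with DMSO and 3.52, 3.46 and 3.6 with defactinib. In 19 mitosis genes all defactinib libraries lay below all DMSO ones, which held for 12.5% of all genes. No replication gene was called, with 4 at an unadjusted p below 0.05 and none by DESeq2 or limma-voom. Neither mitosis call was left without replicate 3, when Cdc20 was at -0.93 and Foxm1 at -0.93. Of 18 fits that left out 1 library, the call was kept in 9 for Cdc20 and in 11 for Foxm1. Both calls were also lost without any 1 of the WT unstimulated or the IRF5 KO LPS defactinib libraries. With replicate 3 as the only DMSO library, 17 mitosis and 2 replication genes were lower, where that fit called 14.6% of all genes lower and 4.63% higher. Replicates 1 and 2 of LPS DMSO lay inside the range of the defactinib libraries in 5 of the 40 genes each. Aurka was near it, with 3.39 and 2.89 against 2.75, 3.02 and 2.87 CPM. Other genes were apart, with Ube2c at 21.4 and 19.7 against 8.75, 10.9 and 10.9 CPM, Foxm1 at 7.61 and 6.84 against 3.71, 4.08 and 3.59 CPM, Cdc20 at 4.17 and 4.72 against 2.54, 1.97 and 2.47 CPM, and Top2a at 69.1 and 69.5 against 49.4, 48.4 and 52.7 CPM. These examples were chosen after their values were seen. Cell type markers differed between the DMSO and the defactinib libraries as well. Macrophage markers summed to 10100 to 12700 and 18600 to 19500 CPM, and neutrophil markers to 1180 to 1720 and 2540 to 2720 CPM. Progenitor markers summed to 55.6 to 60.6 and 38 to 39 CPM. No marker of these lists was called, with medians of 0.35, -0.53 and -1.12. Their part in these results was not tested.

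LPS with defactinib against unstimulated IRF5 KO BMDMs, chosen after the data were seen, uses that group for the estimate of the spread alone. Here 17 of 24 mitosis genes and 2 of 16 replication genes fell and 1 mitosis gene rose, where 16.2% of all genes were called lower and 7.85% higher. Plk1 fell by 3.19 (SE 0.63, FDR = 0.000806), and Cdc20, from 14, 27.7 and 17 CPM to 2.54, 1.97 and 2.47 CPM, by 3.07 (SE 0.50, FDR = 0.000254). Cenpf fell by 2.69 (FDR = 0.000216), Aurka by 2.48 (FDR = 0.000384), Kif20a by 2.01 (FDR = 0.000264) and Foxm1 by 1.88 (FDR = 0.000106). Cyclins followed, with Ccna2, cyclin A2, lower by 1.68 (FDR = 0.00143) and Ccnb1, cyclin B1, by 1.55 (FDR = 0.00143), while Ccnb2 and Cdk1 were not called. Of the replication genes Cdc45 fell by 1.35 (FDR = 0.000689) and Cdc6 by 1.26 (FDR = 0.00123), and Mcm3 was higher by 0.65 (FDR = 0.00935), under 2-fold. Mki67 rose from 100, 157 and 101 CPM to 318, 298 and 310 CPM (1.37, SE 0.20, FDR = 0.0001). In 23 of 24 mitosis genes the defactinib libraries lay below all unstimulated ones, which held for 36.9% of all genes. Without replicate 2 of IRF5 KO unstimulated, 13 mitosis genes fell, where 14.7% of all genes were called lower. Macrophage markers summed to 10500 to 14900 CPM in the unstimulated and 18600 to 19500 CPM in the LPS defactinib libraries, neutrophil markers to 1090 to 1710 and 2540 to 2720 CPM, and progenitor markers to 42.9 to 58.9 and 38 to 39 CPM, with Cebpe (-1.43, FDR = 0.00721) and Myb (-1.96, FDR = 0.0078) called lower, 2 of 9 tested. Their part in these falls was not tested.

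The same step was 7 mitosis genes lower in WT. Whether the genotypes differed was tested as an interaction, also chosen after the data were seen, with 5.43% of all genes called higher and 2.80% lower. Cdc45 (-1.48, SE 0.37, FDR = 0.0122) and Foxm1 (-1.24, SE 0.37, FDR = 0.0348) were called as lower in IRF5 KO than in WT relative to rest, and Mki67 (1.04, SE 0.27, FDR = 0.0167) as higher. Plk1 at -1.57 (SE 0.83, FDR = 0.233) and Cdc20 at -1.55 (SE 0.66, FDR = 0.135) were not called. The median interaction was -0.64 over the mitosis and -0.13 over the replication genes, beside -0.04 over all genes. Leaving out replicate 3 of IRF5 KO LPS DMSO, which bears on the spread alone, called 7 mitosis genes in place of 2, with Plk1 at -1.56 (FDR = 0.000689) and Cdc20 at -1.55 (FDR = 0.00186) among them. Calls rose over all genes too, to 6.97% higher and 4.98% lower. Leaving out replicate 2 of WT LPS defactinib called 0 mitosis genes, with 4.78% and 3.35% of all genes.

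Interactions of genotype with LPS, and of genotype with defactinib after LPS, were tested in the same fit. For LPS, Bub1b (-1.86, SE 0.34, FDR = 0.00225) and Mad2l1 (-1.08, SE 0.28, FDR = 0.0174) were called, both lower in IRF5 KO than in WT relative to rest, where 3.49% of all genes were called higher and 6.33% lower. Bub1b had unstimulated, LPS DMSO and LPS defactinib means of 41.2 ± 1.4, 82.6 ± 7.42 and 32.1 ± 0.371 CPM in WT and 54.6 ± 7.14, 30.2 ± 16.5 and 22 ± 1.47 CPM in IRF5 KO (SD, n = 3). For defactinib, 1 mitosis gene was called higher and 6 lower, and 1 replication gene lower, where 12.3% and 10.5% of all genes were. With library size alone these shares were 8.17% higher and 18.2% lower. Mki67 (2.02, SE 0.27, FDR = 4.28e-05) was the one higher, with 298 ± 55 CPM in LPS DMSO and 96.6 ± 26.8 CPM in LPS defactinib of WT against 236 ± 22 and 309 ± 10 CPM in IRF5 KO. Kif23 (-2.05, SE 0.40, FDR = 0.000988) had the largest difference in the other direction, and was at -1.68 without replicate 3 of IRF5 KO LPS DMSO. The Mad2l1 call for LPS was lost without replicate 2 of IRF5 KO unstimulated (-0.83) and without replicate 1 (-0.97) or 2 (-0.96) of IRF5 KO LPS DMSO, and it was at -1.29 without replicate 3. Bub1b was at -2.41 and -1.13 for LPS without replicate 3 and without replicates 1 and 2 of that group.

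**Figure D5:**
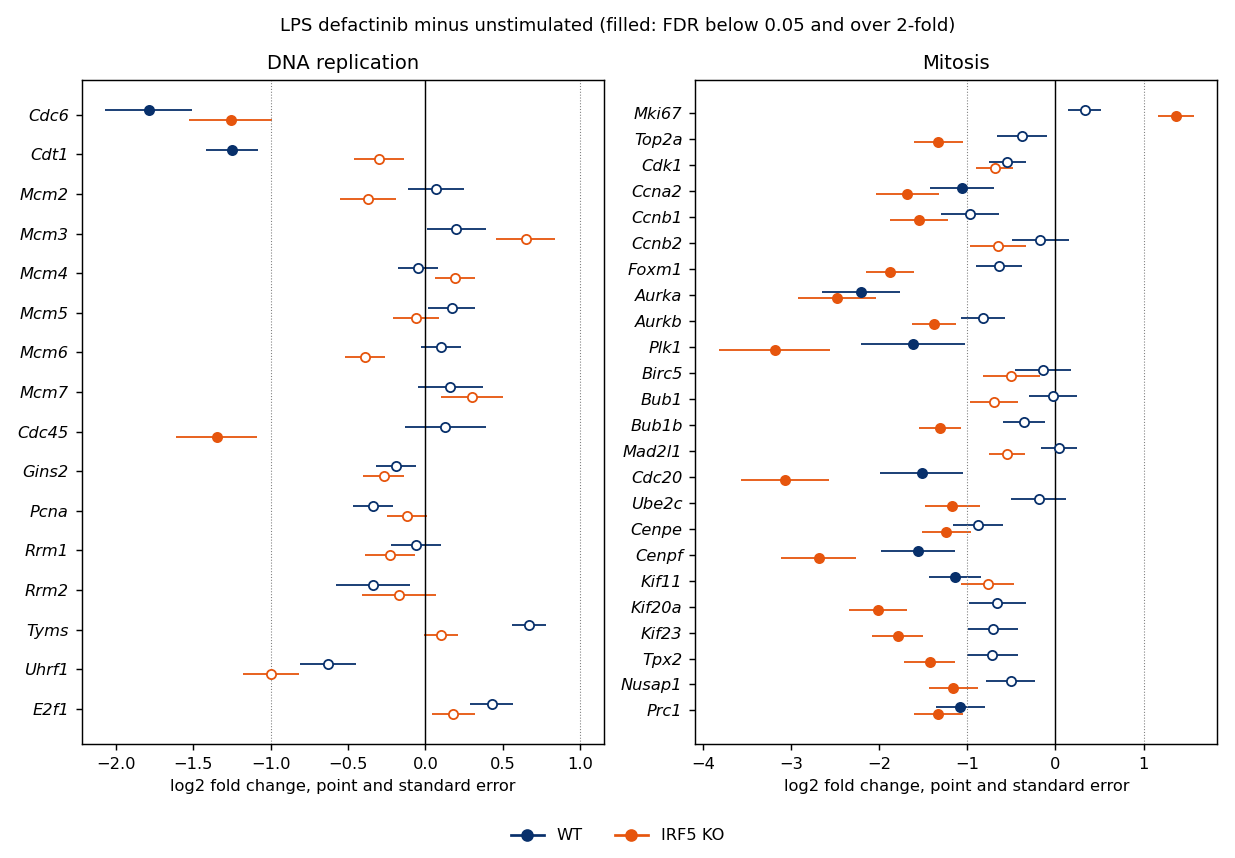
Log2 fold changes with standard errors of LPS defactinib against unstimulated BMDMs, in WT (blue) and IRF5 KO (orange). Most mitosis genes lie left of 0 in both, down to -3.19 for Plk1 in IRF5 KO, and Mki67 of IRF5 KO is the filled point on the right at 1.37.

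Other genes of the same processes were counted from lists written from general knowledge, with earlier results of these data known. Their shifts are therefore not an independent check of the genes described above. Of 59 further mitosis genes, LPS in WT lowered 22 and raised 2, with a median of -0.69, where 9.71% of all genes were called lower and 11.6% higher. They included Cdca2 (-2.07, FDR = 3.42e-06), Aspm (-1.98, FDR = 0.00205) and Kif2c (-1.81, FDR = 0.0118) among those lower, and Pttg1, securin, (1.83, FDR = 3.34e-07) and Kif4 (1.20, FDR = 0.000456), which were higher. Of 49 further replication genes 8 were lower and 1 higher, with Clspn (-2.02, FDR = 2.82e-05), Cdc7, the kinase that fires origins, (-1.92, FDR = 8.75e-06) and Orc5 (-1.64, FDR = 0.000153) lower and Timeless (1.32, FDR = 5.12e-05) higher. In unstimulated IRF5 KO against WT the median was 0.62 over the mitosis and 0.50 over the replication list, with 4 and 1 genes called, all higher, where 3.51% of all genes were. In LPS defactinib against unstimulated IRF5 KO BMDMs 29 of 59 and 11 of 49 were lower, where 16.2% of all genes were, and Ckap2l (2.64, FDR = 0.000281) was higher. Among the lower ones were Kif2c (-3.26, FDR = 0.000329), Nek2 (-3.24, FDR = 0.000558) and Chaf1a (-2.47, FDR = 0.000159).

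Factors that regulate both classes, activators and repressors among them, were counted too. Of 21 E2F, RB and DREAM factors, LPS in WT called 3 higher and 4 lower, beside 11.6% and 9.71% of all genes. Mybl2, B-MYB, (1.48, FDR = 0.000521), E2f8, a repressor of the family, (1.37, FDR = 0.00565) and Lin9, of the DREAM and B-MYB complexes, (1.23, FDR = 2.17e-05) rose, and E2f2 (-3.52, FDR = 1.33e-07), E2f6 (-1.76, FDR = 3.99e-06) and E2f7 (-1.28, FDR = 0.00249) fell. Defactinib in WT called 3 of the 21 higher and 5 lower, beside 10.4% and 18.6% of all genes. E2f8 (-3.37, FDR = 5.39e-06), Lin9 (-2.25, FDR = 7.64e-08) and Mybl2 (-1.94, FDR = 4.63e-05) were the lower ones with the largest change, and E2f2 (1.5, FDR = 0.000215), Tfdp2 (1.27, FDR = 1.34e-05) and E2f6 (1.08, FDR = 0.000278) were higher. Of 14 G1 genes 3 rose and 2 fell with LPS in WT, and of 16 p53 target genes 3 rose and 5 fell, beside the same shares of all genes, 11.6% and 9.71%. Myc fell by 4.40 on the log2 scale (FDR = 6.53e-07) and Ccnd2, cyclin D2, rose by 2.67 (FDR = 5.03e-05).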

How the data were processed

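RNA of 18 BMDM libraries, 3 biological replicates in each of 6 groups, was sequenced as paired ends. The authors aligned the reads with STAR to mm10 and deposited raw counts per gene, made with featureCounts 1.6.3 from uniquely mapped, reverse-stranded pairs over exons. Gene IDs were matched to GENCODE symbols (50376 of 50600). Totals were 39282181 to 61949143 counts. The p-values rest on the spread between replicates within groups, estimated for each gene over all 6 groups together. Libraries of a group can therefore change the p-values of comparisons that do not use that group.

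Counts were scaled by TMM, filtered with filterByExpr and tested in edgeR 4.0.16 (R 4.3.3) with the quasi-likelihood F test, in 1 fit of all libraries, with Benjamini-Hochberg adjustment over 15663 genes. A call needed FDR below 0.05 and a change over 2-fold. The SE is the log2 fold change divided by the root of F. The steps were tested on simulated counts. Alternatives were DESeq2 1.42.0, limma-voom (limma 3.58.1), other scalings, filters and call rules, a replicate block and fits with libraries left out. By rule, any of the 40 genes could be named, with values by library for the highest gene of a role and up to 3 genes of each class with the largest rise and fall among those called; of the other lists, up to 3 called genes with the largest change in a comparison. Values by library of other genes were added after they were seen. The members and the gene lists were chosen with earlier results of these data known. Promoters are RefSeq windows of GRCm38.p6, matched by symbol; Gins2, Aurkb, Kif20a, Ccna2, Foxm1, Mcm4 and Tpx2 had no match. Figures were drawn with matplotlib 3.10.9.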

Additional observations from a re-analysis of the deposited data

Results flagged for a closer look

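The following genes had a response that differed between the genotypes by an interaction test in edgeR, at FDR below 0.05 and over 2-fold, given as log2 differences of IRF5 KO minus WT. For LPS against unstimulated they were Bub1b at -1.86 and Mad2l1 at -1.08. For defactinib against DMSO after LPS they were Mki67 at 2.02, Kif23 at -2.05, Kif20a at -1.67, Cenpf at -1.66, Foxm1 at -1.63, Bub1 at -1.15, Cdc45 at -1.15 and Aurkb at -1.08. For LPS defactinib against unstimulated, a comparison chosen after the data were seen, they were Cdc45 at -1.48, Foxm1 at -1.24 and Mki67 at 1.04. Of 18 fits that left out 1 library, the call was kept in 18 for Cdc45, in 14 for Mki67 and in 9 for Foxm1.

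The first pair of comparisons rests on the IRF5 KO LPS DMSO libraries. Without replicate 3 the interaction with defactinib was -1.68 for Kif23, -1.37 for Foxm1, -1.13 for Kif20a, -1.07 for Bub1 and 1.94 for Mki67, each still called, while Cenpf, Cdc45 and Aurkb were not called. That fit called 18.8% of all genes higher and 12.8% lower. Of 18 fits that left out 1 library, this call was kept in 18 for Mki67, Kif23, Kif20a and Foxm1. It was kept in 16 for Cdc45, 15 for Aurkb, 14 for Bub1 and 10 for Cenpf. Without replicate 3 of IRF5 KO LPS DMSO, the interaction with LPS called Plk1 at -1.91, Tpx2 at -1.72 and Cdc20 at -1.41 beside Bub1b at -2.41 and Mad2l1 at -1.29. For that interaction the fit called 7.02% of all genes higher and 16.5% lower. The myeloid progenitor markers summed to 55.6 to 60.6 CPM over the 3 libraries of that group. Single markers differed in replicate 3 in both directions, Cebpe with 12.5 against 4.97 and 5.46 CPM and Cd34 with 19.6 against 32.6 and 32.3 CPM. Their part in these values was not tested.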

How the results depend on the processing

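Of the members past FDR 0.05 in a comparison, the direction held under every alternative run but for 2 values: Pcna after LPS in WT was at -0.02 with library size alone, and Mcm3 after LPS in IRF5 KO was at -0.03 with IRF5 KO LPS DMSO replicates 1 and 2 left out together. Plk1 in IRF5 KO against WT after LPS, not called at 0.63, was at -0.03 with limma-voom, and from -1.15 to 1.1 with each library left out. S100a8 in IRF5 KO against WT at rest, not called at 0.04, was from -0.07 to 0.19 with each library left out. Library size alone moved the median log2 fold change of all genes by -0.38 for LPS in WT, -0.23 for LPS in IRF5 KO, 0.29 for defactinib in WT and 0.30 for IRF5 KO against WT after LPS. Counts below are of calls among the replication and then the mitosis genes. Where no cause is named it was not tested.

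The replicate numbers did not pair the libraries (median correlation 0.005 over 45 pairs, 4 over 0.1). The replicate block called 1 mitosis gene in place of 2 for defactinib in IRF5 KO, 8 in place of 9 for LPS in WT and 3 in place of 2 for LPS in IRF5 KO, and left the other counts as they were. In that order it called 0.160%, 11.6% and 6.81% of all genes higher, and 0.364%, 9.67% and 7.45% lower.

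Without the fold limit, a looser rule by construction, the replication and mitosis calls were 7 and 10 for LPS in WT, 3 and 7 for LPS in IRF5 KO, 6 and 7 for defactinib in WT, 12 and 3 for IRF5 KO against WT at rest, 14 and 12 after LPS, 10 and 2 with defactinib, 6 and 13 for LPS defactinib in WT, 5 and 22 in IRF5 KO. The replication calls were 1, 6 and 3 for the interactions with LPS, defactinib and LPS defactinib. The mitosis calls of these interactions were 0 higher and 3 lower, 2 and 6, and 1 and 1. Of all genes 7.35% were called higher and 9.77% lower, 18.5% and 18.4%, and 9.16% and 6.01%. With glmTreat, a stricter rule, the replication and mitosis calls were 0 and 2 for LPS in WT, 0 and 0 for LPS in IRF5 KO, 0 and 1 for defactinib in WT, 0 and 0 for defactinib in IRF5 KO, 0 and 0 for IRF5 KO against WT at rest, 3 and 1 after LPS, 1 and 1 with defactinib, 1 and 1 for LPS defactinib in WT, 0 and 7 in IRF5 KO, and 0 and 0, 0 and 2, and 0 and 0 for the interactions in that order. Of all genes it called 6.35%, 2.09%, 4.09%, 0.00%, 1.06%, 4.69%, 3.99%, 4.07%, 3.67%, 0.294%, 5.54% and 1.76% higher, in the same order. The shares called lower were 3.77%, 0.00%, 11.3%, 0.00%, 1.21%, 6.54%, 2.63%, 7.57%, 6.38%, 0.396%, 3.13% and 0.147%.

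Mitosis calls for LPS in IRF5 KO were 7 with library size alone, 0 with no filter, 4 with DESeq2, 6 with limma-voom and 0 with only the groups compared. In that order 5.75%, 3.96%, 7.73%, 4.35% and 1.05% of all genes were called higher. The shares called lower were 10.8%, 2.89%, 6.30%, 9.58% and 0.0353%. For defactinib in IRF5 KO the mitosis calls were 1 with no filter, 4 with the filter of 5 CPM in 3 libraries, 7 with DESeq2, 1 with limma-voom and 0 with only the groups compared. In that order 0.0756%, 0.151%, 0.302%, 0.262% and 0.0565% of all genes were called higher. The shares called lower were 0.223%, 1.44%, 3.27%, 0.351% and 0.00706%. For the LPS defactinib interaction the mitosis calls were 4 with DESeq2, 1 with limma-voom and 7 with only the groups compared. Of all genes 6.21%, 5.67% and 6.91% were then called higher, and 3.87%, 2.61% and 5.16% lower. For the LPS interaction there was 1 mitosis call with library size alone, where 5.15% of all genes were called higher and 4.17% lower. Library size alone turned the split of the LPS defactinib interaction from 1 higher and 1 lower to 0 and 2, where 4.07% and 4.85% of all genes were. DESeq2 size factors turned that of LPS in IRF5 KO from 0 and 2 to 1 and 2, where 7.30% and 6.05% of all genes were. For LPS in WT library size alone turned the replication split from 1 higher and 2 lower to 0 and 3. E2f1, the replication call for defactinib in WT, was lost (0 calls) with DESeq2 size factors, no filter and DESeq2. Library size alone gave 4 and 2 calls for IRF5 KO against WT at rest and 4 replication calls for the defactinib interaction, which had 2 with the 5 CPM filter and 0 with only the groups compared.

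With IRF5 KO LPS DMSO replicates 1 and 2 left out together, the lone library is assumed to vary like the other groups. The calls were then 0 and 0 for LPS and 2 and 17 for defactinib in IRF5 KO, 15 mitosis genes for IRF5 KO against WT after LPS, 1 and 6 for the LPS interaction, 2 and 12 for the defactinib interaction and 7 mitosis genes for the LPS defactinib interaction.

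Leaving out each library in turn gave 2 to 3 and 6 to 10 calls for LPS in WT, 0 to 1 and 0 to 11 for LPS in IRF5 KO, 0 to 2 and 4 to 6 for defactinib in WT, 0 to 1 and 0 to 8 for defactinib in IRF5 KO, 1 to 3 and 0 to 1 for IRF5 KO against WT at rest, 6 to 9 and 6 to 10 after LPS, 2 to 5 and 2 with defactinib, 2 and 2 to 8 for LPS defactinib in WT, 2 to 3 and 14 to 18 in IRF5 KO, 0 and 1 to 7 for the LPS interaction, 0 to 2 and 4 to 9 for the defactinib interaction and 1 to 2 and 0 to 7 for the LPS defactinib interaction. The share of all genes moved in these fits as well. For LPS in IRF5 KO it was 4.99% to 9.64% higher and 1.47% to 16.6% lower. For defactinib in IRF5 KO 0.0686% to 5.28% were lower, and for the LPS interaction 3.91% to 16.5%. The lowest count of the 40 genes was 45, for Cdc6 in a WT LPS defactinib library, and what depth limited was not tested.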
